A study of Mus musculus with 4 samples.

Results

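WFDC and mucosal defence proteins are secreted or transport proteins with which epithelia protect their surfaces and ducts. The group described here holds 6 genes, *Wfdc2*, *Wfdc3*, *Wfdc18*, *Slpi*, *Lcn2* and *Pigr*, of 28693 in the count matrices. It was put together because *Wfdc3*, *Wfdc18* and *Slpi* had been among the leading genes of luminal or basal groups from LATS1/2-KO mice. The levels of all 6 in LATS1/2-KO against CTL cells are therefore given as a description with no test. Each of the 6 symbols was found once in the matrices.

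WFDC domains are small folds held together by disulfide bonds, and several proteins that carry them inhibit serine proteases. SLPI inhibits neutrophil elastase and cathepsin G, lipocalin 2 captures the iron-binding siderophores of bacteria, and the polymeric immunoglobulin receptor, encoded by *Pigr*, carries IgA across the epithelium into secretions such as milk. The mammary duct is built from luminal cells that carry the estrogen receptor (ER+), luminal cells that lack it and include the milk progenitors (ER-), and contractile basal cells.

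Single-cell RNA counts came from 4 mouse mammary gland libraries, 1 per mouse, made with 10x Genomics 3′ chemistry from sorted live cells. The 2 CTL mice, which the labels call WT, were adult nulliparous animals with floxed *Lats1* and *Lats2* alleles, 1 R26-lsl-EYFP reporter allele and no Cre. The 2 LATS1/2-KO mice carried Krt8-CreERT2 in addition, with 1 lsl-EYFP allele in replicate 1 and 2 in replicate 2. All 4 were given 5 daily doses of 2 mg tamoxifen and were collected 7 days after the last dose. Beyond the names of the floxed, driver and reporter lines, no strain background is stated in the text used here. The floxed alleles and tamoxifen are shared by both groups, while Cre is not. The driver is that of a luminal keratin, and EYFP marks cells in which Cre has acted. A LATS1/2-KO gland may also hold luminal cells without recombination. EYFP is read from an allele of its own and not from *Lats1* or *Lats2*.

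The libraries of CTL replicates 1 and 2 held 47321220 and 43020190 UMIs in 5291 and 3736 barcodes. Those of LATS1/2-KO replicates 1 and 2 held 39319356 and 46476923 UMIs in 4937 and 6360 barcodes. After barcodes with 500 genes or fewer, or with 20% or more of their UMIs from mitochondrial genes, were left out, 4914, 3515, 4499 and 5272 cells remained, in the order CTL 1, CTL 2, LATS1/2-KO 1 and LATS1/2-KO 2, with medians of 7443.5, 10141, 6724 and 5962.5 UMIs per cell. All values over the 4 libraries are given in that order below. Of 20273 distinct barcode sequences, 51 occurred in more than 1 library, 43 of them among the kept cells.

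Cells were assigned to a lineage by the mean of their scaled log levels over each marker list, and none of the 6 genes served as a marker. The luminal ER- class held 2980, 2176, 1887 and 1951 cells, the luminal ER+ class 1354, 1003, 599 and 211, and the basal class 194, 162, 431 and 522. Such a class is a range of a score and not a sharp type: 225, 130 and 72 cells of the 3 classes lay within 0.05 of another class. The median luminal ER- score of luminal ER- cells was 0.388 in CTL and 0.262 in LATS1/2-KO, beside ER+ scores of 0.082 and 0.0276. Luminal ER+ cells had median ER+ scores of 0.428 and 0.295 and ER- scores of 0.0372 and 0.0318. Basal cells had median basal scores of 0.491 and 0.278, and their score for general epithelial keratins and adhesion genes went from 0.128 to 0.287. A further 17, 6, 624 and 616 cells had luminal keratins but no lineage score, and they are named luminal keratin cells without a lineage. *Krt14*, a basal keratin, was kept out of the markers. It stood at 4.54, 2.81, 1185 and 784 CPM in luminal ER- cells, where CPM is UMIs of a gene per 1e6 UMIs of the class. In LATS1/2-KO, luminal keratin cells without a lineage held 3375 and 2393 CPM of *Krt14* and basal cells held 3220 and 2856 CPM.

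*Lats1* and *Lats2* were read first as a check of the labels. The luminal ER- level of *Lats1* was 25.7, 25.9, 15.2 and 18.8 CPM and that of *Lats2* was 15.4, 17.2, 27.6 and 29.98 CPM. Levels in luminal ER+ cells were 21.4, 21.7, 21.7 and 19.2 CPM for *Lats1* and 11.4, 12.4, 19.5 and 23.7 CPM for *Lats2*. Basal cells held 16.4, 21.7, 27.3 and 20.8 CPM of *Lats1* and 32.8, 28.96, 30.4 and 35.9 CPM of *Lats2*. Of these 3 classes, *Lats1* was lower in both LATS1/2-KO libraries only in luminal ER- cells, but it was also lower in endothelial cells, with 29.8, 30.5, 20.7 and 12.6 CPM from 7, 6, 23 and 15 UMIs, and luminal keratin cells without a lineage held 11 and 10.01 CPM in LATS1/2-KO. *Lats2* was higher in both LATS1/2-KO libraries in both luminal classes. It was lower in both in endothelial cells, with 80.9, 91.4, 42.4 and 56.1 CPM. The deleted exons are not given in the sources used here, and a 3′ tag outside the deleted part checks nothing. The reporter gives the other label: at least 1 EYFP UMI was found in 0.336, 0.414, 18.2 and 20.3% of luminal ER- cells, 0.222, 0.499, 16 and 33.2% of luminal ER+ cells and 0.515, 1.23, 9.74 and 10.9% of basal cells. Fibroblasts gave 0, 3.85, 2.12 and 2.12% and endothelial cells 0, 2.86, 1.3 and 5.24%.

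For each gene, UMIs were summed over the cells of a class in a library and divided by the class total, so that n = 2 mice per group. With 2 against 2, an exact permutation test cannot give a p below 0.333. Log2 fold changes come from the edgeR fit over all genes, which scales libraries by TMM. Against library totals alone TMM lowered the median log2 fold change of all genes. It did so by 0.35 in luminal ER- cells, 0.09 in luminal ER+ cells and 0.14 in basal cells. The log2 fold changes below are relative to TMM, while levels in CPM and ratios of mean CPM are relative to library totals. The choice of scaling reversed 1 of the 6 genes, *Lcn2* in luminal ER- cells, and the listed genes *Cstb* (0.08), *Spint2* (0.03) and *Retnlg* (0.20) there. Of all genes called, 52% were higher in luminal ER- cells under TMM and 74.2% under library totals, and in basal cells 51% and 61.6%.

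In luminal ER- cells of LATS1/2-KO, the WFDC genes *Wfdc2*, *Wfdc3* and *Slpi* were at 12.8, 17.9 and 28.8 times their CTL mean in CPM. *Wfdc18* was at 1.81 times and *Pigr* at 0.14 of that mean. On the TMM scale the log2 fold changes of these genes were 3.33, 3.82, 4.51, 0.51 and −3.18, in that order. *Lcn2* stood at nearly the same level in both groups. Both LATS1/2-KO libraries lay above both CTL libraries in CPM for 5 of the 6 genes, while 58.9% of all 13485 genes tested did so. *Pigr* alone of the 6 lay below in both, as did 24.8% of all genes tested. In the fit as a whole, edgeR called 58.6% of genes at a Benjamini-Hochberg threshold of 0.05. The 6 genes were chosen on this contrast, and nothing is read from their count.

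**Figure D1:**
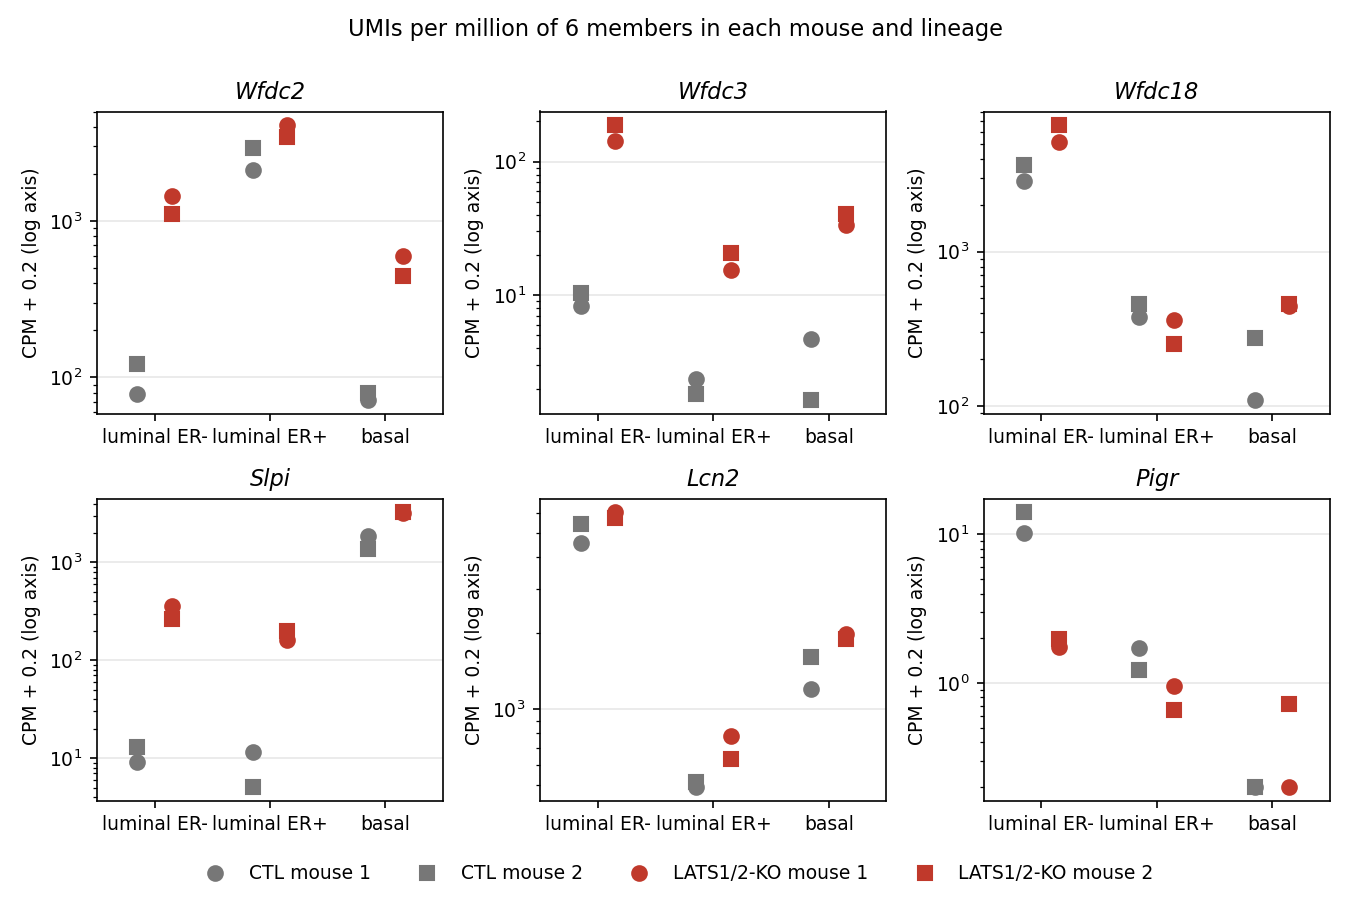
Level of each gene per library, as CPM + 0.2 on a log axis in the 3 epithelial classes, with 1 point per mouse and class. *Slpi* of luminal ER- cells sits at 8.93 and 12.7 CPM in CTL and at 357 and 267 CPM in LATS1/2-KO, while *Pigr* sits at 10.1 and 13.9 CPM in CTL and at 1.56 and 1.79 CPM in LATS1/2-KO.

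*Slpi* encodes the secretory leukocyte protease inhibitor, a protein of 2 WFDC domains. In luminal ER- cells it stood at 8.93, 12.7, 357 and 267 CPM. Both CTL libraries were low, both LATS1/2-KO libraries were high, and the groups did not overlap, with 10.8 ± 2.69 against 312 ± 63.7 CPM (mean ± SD, n = 2) and a log2 fold change of 4.51 (SE 0.22). Luminal ER+ cells held 11.5, 4.87, 163 and 200.03 CPM, a log2 fold change of 4.37 (SE 0.38), again without overlap, which was 3.87 without CTL 2 and 5.12 without CTL 1. Basal cells, which held most of it in CTL glands, had 1865, 1369.6, 3204 and 3264 CPM, and both LATS1/2-KO libraries were above both CTL libraries by 0.85 log2 units (SE 0.16). In luminal keratin cells without a lineage of LATS1/2-KO, *Slpi* stood at 149 and 145 CPM.

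Free RNA in droplets gives UMIs to cells that do not make a gene, so shares of cells were taken after thinning each cell to 2000 UMIs and set beside fibroblasts and endothelial cells of the same library. This background was taken under a stricter gate, without cells that carry markers of another class, while the epithelial classes were not cleaned in that way. Thinning left out 103, 48, 86 and 82 luminal ER- cells, whose class had median depths of 6943.5, 8146, 8224 and 8568 UMIs before it. The 97, 59, 510 and 1131 fibroblasts and endothelial cells of the stricter gate, of 105, 61, 560 and 1237 in all, had medians of 3922, 4411, 4512.5 and 4515 UMIs. *Slpi* was found in 1.6% of thinned luminal ER- cells of CTL 1 (exact 95% binomial interval 1.17 to 2.13%), 1.97% of CTL 2 (1.43 to 2.66%), 33.5% of LATS1/2-KO 1 (31.3 to 35.7%) and 28% of LATS1/2-KO 2 (26 to 30.1%). Fibroblasts and endothelial cells gave 1.22, 0, 7.49 and 3.71%. The CTL shares were within the intervals of their background, which rests on 1 of 82 and 0 of 48 cells. The LATS1/2-KO shares were above their background. With all cells of the 2 classes the background was 1.11, 0, 7.44 and 4.08% of cells for *Slpi*, but its level in LATS1/2-KO went from 58.8 and 60.7 CPM to 87.4 and 108 CPM, and luminal ER- cells from 6.07 and 4.4 times to 4.09 and 2.47 times that level. In CTL, luminal ER- cells were at 1.9 and 3.76 times the background level of the stricter gate, which rests on 2 and 1 UMIs. With all cells they were at 1.14 and 3.98 times. Without thinning the luminal ER- shares were 4.83, 6.11, 61.1 and 56.5%. In luminal ER+ cells of LATS1/2-KO the thinned shares, 13 and 13.7%, were lower than in luminal ER- cells and above the background, with an interval from 10.4% in LATS1/2-KO 1 that touched the one of its background. These intervals, and all intervals of shares below, cover counting error of cells within a library and not spread between mice. A share that is not apart from its background does not show that the cells lack the gene.

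*Slpi* and *Lcn2* are also products of neutrophils, a class that held 1, 0, 3 and 24 cells here. The 24 cells of LATS1/2-KO 2 held 2568 CPM of *Slpi* and 4016 CPM of *Lcn2*, from 172 and 269 UMIs. The 6 neutrophil markers, *Cxcr2*, *Csf3r*, *Retnlg*, *Ly6g*, *S100a8* and *S100a9*, summed to 1.4, 18.4, 13.9 and 36.8 CPM within the luminal ER- class. *S100a8* was the most abundant of them in CTL 1 and both LATS1/2-KO libraries and *S100a9* in CTL 2, and *Ly6g* was at 0 in all libraries but LATS1/2-KO 2. Fibroblast markers rose with the group as well, from 15.05 and 34.2 to 281 and 314 CPM (*Dcn* was the most abundant in CTL, *Col3a1* and *Col1a1* in LATS1/2-KO), as did macrophage markers, from 6.97 and 9.39 to 29.5 and 37 CPM (*Cd68* or *C1qb*, with *Adgre1* at 0 in CTL). So did basal markers, from 34.1 and 24.6 to 159 and 116 CPM (*Acta2* the most abundant in CTL, *Krt17* in LATS1/2-KO). Their part in the levels of the 6 genes was not tested.

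*Wfdc2* encodes a secreted protein with 2 WFDC domains, known in human medicine as the ovarian tumor marker HE4. In luminal ER- cells it stood at 78.7, 121, 1441 and 1109 CPM. Both LATS1/2-KO libraries were above both CTL libraries, with a log2 fold change of 3.33 (SE 0.23). The same class under a stricter gate, which dropped cells with markers of another class, gave 44.4, 58.8, 1406 and 1096 CPM and a log2 fold change of 4.26. In CTL glands *Wfdc2* was a gene of luminal ER+ cells, where the levels were 2127, 2916, 4092 and 3460 CPM with a log2 fold change of 0.50 (SE 0.19), or 0.29 without CTL 1 and 0.73 without CTL 2. Basal cells held 71.7, 79.6, 595 and 443 CPM, a log2 fold change of 2.63 (SE 0.18), and LATS1/2-KO was the higher group there too.

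After thinning, *Wfdc2* was found in 10.1% (9 to 11.2%), 13.5% (12.1 to 15%), 73.3% (71.2 to 75.3%) and 64.4% (62.2 to 66.6%) of luminal ER- cells. Fibroblasts and endothelial cells gave 2.44, 10.4, 18.7 and 8.16%. The LATS1/2-KO shares were far above that background, the CTL 1 share lay above the interval of its own background, 0.297 to 8.53%, and the CTL 2 share lay within that of its own, 3.47 to 22.7%. Unthinned shares were 31, 41.1, 89 and 84.5%. In basal cells the thinned shares were 9.2, 14.1, 38.6 and 22.8%, above the background in both LATS1/2-KO libraries.

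*Wfdc3* encodes another secreted WFDC protein. It stood at 8.08, 10.2, 141 and 187 CPM in luminal ER- cells. The 2 LATS1/2-KO libraries were high and the CTL libraries low, with 9.15 ± 1.52 against 164 ± 32.2 CPM (mean ± SD, n = 2) and a log2 fold change of 3.82 (SE 0.18). Luminal ER+ cells held 2.15, 1.62, 15.2 and 20.6 CPM, a log2 fold change of 3.12 (SE 0.27). In basal cells they were 4.48, 1.45, 33.1 and 40.6 CPM, a log2 fold change of 3.49 (SE 0.48) that rests on 3 and 1 UMIs in CTL and was 2.87 without CTL 2 and 4.53 without CTL 1. LATS1/2-KO was above CTL in both classes. Luminal keratin cells without a lineage held only 4.91 and 8.76 CPM in LATS1/2-KO, beside 6.32 and 4.99 CPM in fibroblasts and endothelial cells of the stricter gate.

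Thinned shares of *Wfdc3* in luminal ER- cells were 1.77% (1.32 to 2.32%), 2.16% (1.59 to 2.87%), 22.7% (20.7 to 24.7%) and 26.9% (24.9 to 28.9%), against 6.44, 8.64, 45.1 and 53.2% unthinned. The background was 0, 0, 1.64 and 0.847%, where the exact intervals of a count of 0 among the 82 and 48 thinned cells of CTL reach 4.4 and 7.4%. In basal cells of LATS1/2-KO the share was 5.41% (3.42 to 8.07%) and 8.54% (6.22 to 11.4%), above the background. In luminal ER+ cells it was 2.6% (1.46 to 4.25%) in LATS1/2-KO 1, which was not apart from the background, and 4.57% (2.11 to 8.5%) in LATS1/2-KO 2. In luminal keratin cells without a lineage the shares, 1.71 and 2.4%, were near the background.

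*Wfdc18* encodes a small WFDC protein that is abundant in mammary secretory epithelium. Luminal ER- cells held 2867, 3619, 5159 and 6588 CPM. Both LATS1/2-KO libraries were above both CTL libraries, 3243 ± 531 against 5874 ± 1011 CPM (mean ± SD, n = 2), and the log2 fold change was 0.51 (SE 0.16) on the TMM scale and 0.86 on library totals. Luminal ER+ cells held 377, 454, 361 and 249.8 CPM, a log2 fold change of −0.52 (SE 0.20), with both LATS1/2-KO libraries below both CTL libraries. It was −0.27 without LATS1/2-KO 2 and −0.86 without LATS1/2-KO 1, and with the stricter gate the groups overlapped, at 158, 201, 176 and 68.3 CPM. Basal cells held 109, 277, 445 and 459.9 CPM, a log2 fold change of 1.09 (SE 0.24), and here LATS1/2-KO was above CTL. Without CTL 2 the basal value was 1.89 and without CTL 1 it was 0.61. With the stricter gate basal cells held 61.5, 40.3, 287 and 317 CPM.

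The background of *Wfdc18* is high: fibroblasts and endothelial cells of the stricter gate held 84.4, 16.9, 212 and 189 CPM, and all cells of these classes held 179.6, 44.8, 272 and 190.2 CPM, so it rose with the group as well. Luminal ER+ cells of LATS1/2-KO were at 1.7 and 1.32 times the level of the stricter gate and basal cells at 2.1 and 2.43 times, or at 1.32 and 1.31 times and 1.63 and 2.42 times with all cells. In CTL, luminal ER+ cells were at 4.47 and 26.8 times the level of the stricter gate, or 2.1 and 10.1 times with all cells. Their thinned shares, 19.9% (17.8 to 22.2%) and 21.2% (18.7 to 23.9%), were above 4.88% (1.34 to 12%) and 4.17% (0.509 to 14.3%) with the stricter gate, but with all cells the background of CTL 2, 8% (2.22 to 19.2%), was not apart from them. Basal cells of CTL had shares of 10.4 and 10.7%, not apart from the background, and levels of 1.29 and 16.3 times it, or 0.607 and 6.17 times with all cells. After thinning, 31 and 19.8% of luminal ER+ cells and 36.4 and 19.1% of basal cells of LATS1/2-KO had a *Wfdc18* UMI, beside 31.9 and 18.3% of fibroblasts and endothelial cells. None of these shares was apart from its background. Before thinning the LATS1/2-KO medians were 8197 and 9959 UMIs in luminal ER+ cells, 5521 and 5696 in basal cells and 4512.5 and 4515 in the background. The shares were not corrected for this difference in depth and cannot show that these cells were at background. The part of the background in the levels was not tested. Lineage-free luminal keratin cells of LATS1/2-KO 2 were apart from it, with 27.7% (24 to 31.7%) against 18.3% (15.9 to 20.9%), while those of LATS1/2-KO 1, at 33.2%, were not. Luminal ER- cells were far above it, with 82.7% (81.3 to 84.1%), 85.9% (84.3 to 87.3%), 81.1% (79.2 to 82.9%) and 84.2% (82.5 to 85.8%) thinned and 92.6, 94, 93.5 and 94.2% unthinned.

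*Lcn2*, lipocalin 2, was abundant in luminal ER- cells of every library, at 4558, 5413, 6049 and 5750.2 CPM. In CPM both LATS1/2-KO libraries were just above both CTL libraries, yet the fitted log2 fold change was −0.10 (SE 0.13), and its sign went with the scaling and with 1 library: it was 0.24 on library totals, 0.11 after thinning, 0.01 without CTL 2 and −0.22 without CTL 1. No direction is given for luminal ER- cells. Luminal ER+ cells held 490.0, 514, 779 and 631 CPM, a log2 fold change of 0.40 (SE 0.14) that was 0.20 without LATS1/2-KO 1 and 0.99 with the stricter gate. Basal cells held 1199, 1614, 1985 and 1888 CPM, a log2 fold change of 0.32 (SE 0.14). LATS1/2-KO was above CTL in both classes, and the basal value was 0.16 without CTL 1 and 0.52 without CTL 2. The background of *Lcn2* rose as well, from 108 and 47.4 to 260.4 and 254 CPM with the stricter gate, while with all fibroblasts and endothelial cells it was 486, 166, 324 and 273 CPM, next to which luminal ER+ cells of CTL 1 were at 1.01 times. The part of the background in these rises was not tested. Thinned shares in luminal ER- cells were 98.9, 99.1, 91.8 (90.5 to 93.1) and 89.9% (88.5 to 91.3), so fewer LATS1/2-KO cells of the class had a UMI although the level in CPM was not lower. The background shares of *Lcn2* were 9.76, 8.33, 29.7 and 18.2%, and unthinned shares were 99.6, 99.5, 97.2 and 96%.

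*Pigr* was the only 1 of the 6 that stood lower in luminal ER- cells of LATS1/2-KO. It was found at 10.1, 13.9, 1.56 and 1.79 CPM, from 273, 317, 30 and 39 UMIs. Both CTL libraries were above both LATS1/2-KO libraries and the log2 fold change was −3.18 (SE 0.24). Luminal ER+ cells held 1.53, 1.03, 0.749 and 0.457 CPM, from 27, 19, 4 and 1 UMIs, also without overlap, with a log2 fold change of −1.03 (SE 0.61) that is within about 2 SE of no change and was −1.59 without LATS1/2-KO 1. Basal cells held 0, 0, 0 and 2 UMIs, and *Pigr* did not pass the low-count filter there. After thinning, 1.84% (1.38 to 2.4%), 2.91% (2.24 to 3.72%), 0.5% (0.229 to 0.947%) and 0.535% (0.257 to 0.982%) of luminal ER- cells had a *Pigr* UMI, against 8.26, 11.7, 1.48 and 1.69% unthinned. The background was 0, 0, 0.234 and 0%, with exact intervals that reach 4.4 and 7.4% in CTL, above the luminal ER- shares there. Neither LATS1/2-KO share was apart from its background, whose intervals reached 1.3 and 0.39%.

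In luminal ER+ cells, both LATS1/2-KO libraries lay above both CTL libraries for 4 of the 6 genes, *Wfdc2*, *Wfdc3*, *Slpi* and *Lcn2*, beside 40.6% of all 12719 genes tested. They lay below for *Wfdc18* and *Pigr*, beside 31.1%, and edgeR called 33.8% of all genes, 4305 in number, or 2467 without CTL 1. In basal cells they lay above for 5 of the 6, beside 42.3% of 10103 genes, with edgeR calls for 37.4%, 3774 in number, or 2481 without CTL 2, and *Pigr* was not in the fit. No difference between classes in these fold changes was tested. The lineage markers moved with the group as well: those of luminal ER- cells fell from 8538 and 9819 to 3001 and 3069 CPM in their own class, with *Plet1* the most abundant in CTL and *Csn3* in LATS1/2-KO. In the basal class the epithelial markers went from 2493 and 1798 to 10894 and 11407 CPM, led by *Krt8* in CTL and *Krt18* in LATS1/2-KO. Their part in the result was not tested.

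Across lineages each gene had its own order of mean levels. *Wfdc2* was highest in luminal ER+ cells of CTL (2522 ± 558 CPM), followed by luminal ER- (99.8 ± 29.8) and basal cells (75.6 ± 5.63), and the last pair overlapped. In LATS1/2-KO its order was luminal ER+, luminal keratin cells without a lineage, luminal ER- and basal, all apart. *Slpi* was highest in basal cells of both groups, and luminal ER- and ER+ cells, which overlapped in CTL, were apart in LATS1/2-KO, with luminal keratin cells without a lineage the lowest. *Wfdc3* was highest in luminal ER- cells of both groups. Basal and luminal ER+ cells overlapped in CTL, while in LATS1/2-KO basal, luminal ER+ and lineage-free cells followed in that order, each apart. *Wfdc18* was highest in luminal ER- cells of both groups, then luminal ER+ and basal in CTL, and in LATS1/2-KO basal, lineage-free and luminal ER+ cells overlapped as neighbours. *Lcn2* went from luminal ER- to basal to luminal ER+ cells in CTL, and in LATS1/2-KO the lineage-free cells came between basal and luminal ER+, all apart. *Pigr* went from luminal ER- to luminal ER+ to basal cells in CTL, and in LATS1/2-KO the 3 classes after luminal ER- overlapped as neighbours.

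The lineage of each gene was then read in CTL glands, between classes of the same mouse. *Wfdc3*, *Wfdc18* and *Slpi* had been picked as leading genes of luminal or basal groups, which touches on lineage, so their values are given with no test, and *Wfdc2*, *Lcn2* and *Pigr* were tested. Between luminal ER- and luminal ER+ cells, *Lcn2* and *Pigr* were higher in ER- cells and *Wfdc2* was higher in ER+ cells. All 3 genes tested were called, beside 65.1% of all 13179 genes, 32.8% higher and 32.2% lower. *Wfdc2* differed by −4.44 log2 units (SE 0.07; edgeR, Benjamini-Hochberg adjusted p = 2.24e-12), *Lcn2* by 3.54 (SE 0.07; edgeR, Benjamini-Hochberg adjusted p = 5.5e-12) and *Pigr* by 3.45 (SE 0.24; edgeR, Benjamini-Hochberg adjusted p = 1.13e-07), each in 2 of 2 mice. The highest adjusted p over the alternatives was 9.69e-05 for *Wfdc2*, 3.04e-05 for *Lcn2* and 0.000225 for *Pigr* (edgeR or DESeq2, Benjamini-Hochberg). With no test, *Wfdc18* was higher in ER- cells by 3.19 (SE 0.06) and *Wfdc3* by 2.50 (SE 0.23), in 2 of 2 mice. *Slpi* differed by 0.68 (SE 0.29), with opposite directions in the mice, −0.17 without CTL 2 and 1.61 without CTL 1. Library totals alone shifted the median of all genes by −0.24 in this comparison, and the share of called genes that were higher went from 50.4 to 35.3%.

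Between luminal ER- and basal cells of CTL, *Slpi* was far lower in luminal ER- cells and the other 5 genes were higher. Of these, *Wfdc2*, *Lcn2* and *Pigr* were tested and edgeR called all 3 higher, beside 38.7% of all 12509 genes, 20.5% higher and 18.1% lower. DESeq2, which called 2395 genes, 1167 higher and 1228 lower, called only *Lcn2* of the 3. *Lcn2* was higher by 2.02 log2 units (SE 0.10; edgeR, Benjamini-Hochberg adjusted p = 3.36e-92), in 2 of 2 mice. Over the alternatives this adjusted p went from 2.35e-119 to 3.91e-06 (edgeR or DESeq2, Benjamini-Hochberg). With 2 mice, so small a value rests on the spread that the fit shares across genes. *Pigr* had no UMI in 194 and 162 basal cells, which were shallow, with medians of 3169 and 3741.5 UMIs. With a floor of 3 UMIs per library, 4.48 and 4.34 CPM, it was at least 2.25-fold and 3.2-fold higher in luminal ER- cells (edgeR, Benjamini-Hochberg adjusted p = 2.17e-07, but 0.389 with DESeq2). *Wfdc2* differed by 0.58 (SE 0.15; edgeR, Benjamini-Hochberg adjusted p = 0.000739), or 0.27 without CTL 2 and 0.80 without CTL 1. This call was lost with DESeq2 (0.55), without the mouse as a block (0.58) and after thinning (0.42), and the stricter gate turned the value to −0.13, with adjusted p from 0.000225 to 0.628 over the alternatives (edgeR or DESeq2, Benjamini-Hochberg). With no test, *Slpi* stood at −7.04 log2 units (SE 0.12), *Wfdc18* at 4.31 (SE 0.12) and *Wfdc3* at 1.82 (SE 0.65), or 0.78 without CTL 2 and 2.45 without CTL 1. The shift of all genes under library totals was −0.17 here, and the share higher went from 53.1 to 41%.

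The EYFP reporter divides the luminal cells of a LATS1/2-KO gland into those with at least 1 reporter UMI and those with none. In EYFP-positive luminal cells *Wfdc18*, *Lcn2*, *Slpi* and *Pigr* were lower than in EYFP = 0 cells of the same mouse, *Wfdc2* was not called, and *Wfdc3* was lower in both mice. The comparison took 439 and 466 EYFP-positive against 2047 and 1696 EYFP = 0 cells of LATS1/2-KO 1 and 2. Cells with the reporter were deeper, with medians of 13481 and 14974.5 UMIs against 7492 and 7589, and a cell with no EYFP UMI may still have recombined. The basal keratin *Krt14* rose with the reporter, from 707 and 516 to 2083 and 1392 CPM, and its part in the differences of the 6 genes was not tested. *Wfdc2*, *Lcn2* and *Pigr* were tested and 2 of the 3 were called, both lower, beside 37.2% of all 12697 genes, 18.4% higher and 18.8% lower. *Wfdc3*, *Wfdc18* and *Slpi* had been picked as leading genes of groups of LATS1/2-KO cells, so their values are given with no test.

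*Wfdc18* stood at 4671 and 7045 CPM in EYFP = 0 cells and at 2597 and 3882 CPM in EYFP-positive cells. Each mouse was lower in its EYFP-positive cells, by −0.87 log2 units (SE 0.04), with no test. *Lcn2* stood at 5548 and 6394 CPM without the reporter and at 3137 and 2998 CPM with it, which is −0.98 log2 units (SE 0.05; edgeR, Benjamini-Hochberg adjusted p = 4.24e-18). Its levels did not overlap, and both mice had the same direction. Over the alternatives the adjusted p of *Lcn2* went from 1.01e-213 to 0.0261 (edgeR or DESeq2, Benjamini-Hochberg). *Slpi* stood at 331 and 278 CPM against 269.5 and 227 CPM, lower in both mice by −0.32 log2 units (SE 0.06), also with no test. After thinning with the reporter called first *Slpi* differed by −0.14 (SE 0.09) and *Wfdc18* by −0.77, while *Lcn2* (−0.96) was still called. *Pigr* stood at 1.78 and 2.17 CPM against 0.304 and 0.637 CPM, from 32, 35, 2 and 5 UMIs, lower in both mice by −2.05 log2 units (SE 0.54; edgeR, Benjamini-Hochberg adjusted p = 0.00273). Without the mouse as a block the call of *Pigr* was lost.

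*Wfdc3* stood at 134 and 216 CPM in EYFP = 0 cells and at 58.1 and 80.9 CPM in EYFP-positive cells. It was lower with the reporter in both mice, and the log2 difference was −1.34 (SE 0.07). With EYFP-positive cells taken only at 2 UMIs or more it was −1.78, and after thinning it was −0.98 with the reporter called first and −0.62 with the reporter thinned too, which moves EYFP-positive cells into the EYFP = 0 group. *Wfdc2* stood at 2039 and 1216 CPM without the reporter and at 1958 and 1544 CPM with it. The mice had opposite directions and the ranges overlapped, with a log2 difference of 0.12 (SE 0.05; edgeR, Benjamini-Hochberg adjusted p = 0.0833), which was −0.07 without LATS1/2-KO 2 and 0.32 without LATS1/2-KO 1.

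The lineages were then taken apart, an analysis chosen after the data had been seen. In luminal ER- cells *Wfdc2* went from 1309.7 and 964 CPM without the reporter to 1773 and 1417 CPM with it, and in luminal ER+ cells it went from 4423 and 4075 to 2852 and 2546 CPM. EYFP-positive cells were thus higher in both mice in the ER- class and lower in both mice in the ER+ class. The interaction, the EYFP difference of luminal ER- minus that of luminal ER+ cells, was 1.22 log2 units (SE 0.08; edgeR, Benjamini-Hochberg adjusted p = 1.98e-09). It was 1.26 with EYFP-positive cells taken only at 2 UMIs or more. *Wfdc2*, *Lcn2* and *Pigr* were tested for it and 2 of the 3 were called, 1 higher and 1 lower, beside 10.9% of all 12023 genes, 5.7% higher and 5.17% lower. *Lcn2* went from 6997 and 6892 to 3651 and 3323 CPM in luminal ER- cells and from 813 and 763 to 651 and 435 CPM in luminal ER+ cells. Its interaction was −0.39 (SE 0.11; edgeR, Benjamini-Hochberg adjusted p = 0.027), or −0.24 without LATS1/2-KO 1, and the call was lost with 2 EYFP UMIs or more (−0.15; edgeR, Benjamini-Hochberg adjusted p = 0.62). The 15 luminal ER+ cells of LATS1/2-KO 2 with 1 EYFP UMI held 1349.9 CPM of *Lcn2* and the 55 with more held 249.7 CPM. *Pigr* (−1.67, SE 2.13) was not called, and was −0.55 without LATS1/2-KO 1 and −3.50 without LATS1/2-KO 2.

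*Wfdc18* and *Slpi* are again given with no test. *Wfdc18* went from 5984 and 7644 to 3073 and 4343 CPM in luminal ER- cells and from 379 and 258 to 293 and 237 CPM in luminal ER+ cells, where the background was 212 and 189 CPM. The difference between lineages was −0.53 log2 units (SE 0.11), or −0.60 (SE 0.15) with 2 EYFP UMIs or more. Among luminal ER+ cells of LATS1/2-KO 2, the 15 with 1 EYFP UMI held 119 of the 209 *Wfdc18* UMIs, at 803 CPM, and the 55 with more were at 123 CPM. In LATS1/2-KO 1 the order was opposite, with 152 CPM in the 35 with 1 EYFP UMI and 342 CPM in the 61 with more. *Slpi* went from 378 and 285 to 303 and 229 CPM in luminal ER- cells. In luminal ER+ cells it went from 178 and 197 to 106 and 204 CPM. Its difference between lineages was 0.11 (SE 0.16), with opposite directions in the mice, −0.36 without LATS1/2-KO 1 and 0.56 without LATS1/2-KO 2. *Wfdc3* went from 170.3 and 232 to 68.1 and 89.99 CPM in luminal ER- cells, and from 16.6 and 28.3 to 9.76 and 9.08 CPM in luminal ER+ cells, also with opposite directions of the difference, 0.20 without LATS1/2-KO 1 and −0.47 without LATS1/2-KO 2.

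**Figure D2:**
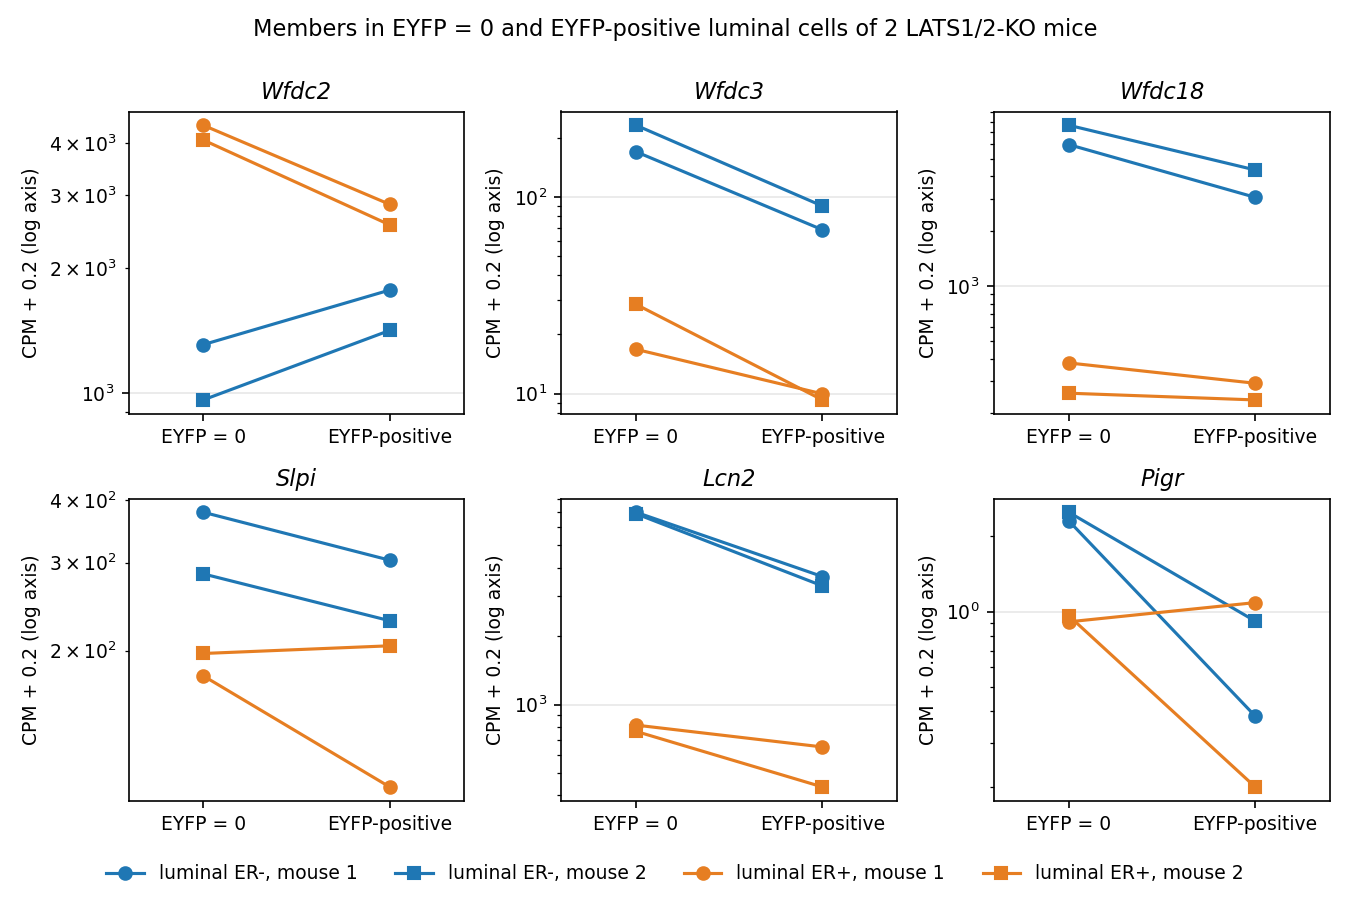
Level of each gene in EYFP = 0 and EYFP-positive cells of the 2 LATS1/2-KO mice, as CPM + 0.2 on a log axis, for luminal ER- and luminal ER+ cells, with a line joining the sums of a mouse. *Wfdc2* rises with the reporter in luminal ER- cells, to 1773 and 1417 CPM, and falls in luminal ER+ cells, to 2852 and 2546 CPM.

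For shares of cells, the reporter was called on all UMIs and the cells were then thinned, an order chosen after the data had been seen, which kept 434 and 457 EYFP-positive and 1944 and 1609 EYFP = 0 luminal cells. A *Wfdc18* UMI was found in 57.6% (52.8 to 62.3%) and 66.5% (62 to 70.8%) of EYFP-positive cells against 71.5% (69.4 to 73.5%) and 81.4% (79.4 to 83.2%) of EYFP = 0 cells. The shares of *Lcn2* were 69.1% (64.5 to 73.4%) and 70.7% (66.3 to 74.8%) against 81% (79.2 to 82.7%) and 88.3% (86.6 to 89.8%), and those of *Wfdc3* were 11.8% (8.88 to 15.2%) and 13.8% (10.8 to 17.3%) against 19.1% (17.4 to 21%) and 27.8% (25.7 to 30.1%). In this order all 3 genes were lower with the reporter in both mice, with intervals that did not overlap. The intervals cover counting error of cells within a mouse and not spread between mice, so they are no test of any gene. *Wfdc2* was found in 83.6 and 76.6% against 77 and 63.8%, higher with the reporter in both mice and apart in both. The *Slpi* shares, 27.9 and 21.4% against 28.7 and 28.2%, overlapped in LATS1/2-KO 1 and were apart in LATS1/2-KO 2. With the reporter called on the thinned UMIs instead, which left 176 and 212 EYFP-positive cells, *Wfdc3* was found in 15.3% (10.4 to 21.5%) and 13.7% (9.36 to 19.1%) against 18% (16.4 to 19.7%) and 26% (24 to 28.1%), and overlapped in LATS1/2-KO 1. So did *Wfdc2*, with 85.2% (79.1 to 90.1%) against 77.7% (75.9 to 79.4%) there, and *Slpi* overlapped in both mice. No thinned EYFP-positive cell had a *Pigr* UMI in the first order (intervals to 0.846 and 0.804%), against 0.566 and 0.622% of EYFP = 0 cells (0.283 to 1.01% and 0.298 to 1.14%), which overlap.

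Luminal keratin cells without a lineage were the class richest in the reporter, with EYFP in 39.7 and 55.8% of cells of LATS1/2-KO 1 and 2. Of the 6 genes, *Wfdc2* was well above the background there, at 13.5 and 33.4 times its level in fibroblasts and endothelial cells of the stricter gate. *Lcn2* was at 3.11 and 3.24 times, *Slpi* at 2.54 and 2.39 times and *Wfdc18* at 1.46 and 2.46 times. With all cells of those classes the values were 12.6 and 31.5, 2.5 and 3.01, 1.71 and 1.34, and 1.13 and 2.45 times. Within these cells *Slpi* was lower with the reporter in both mice, 102 and 81.1 CPM against 205 and 306 CPM, and so was *Lcn2*, at 541 and 669 CPM against 1128 and 1211 CPM. *Wfdc2*, at 1724 and 1625 CPM with the reporter and 1766 and 1349 CPM without it, overlapped. These values were not tested.

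The patterns most like each gene were sought over 31 sums of a class and a library with at least 20 cells, among 8821 genes, as Pearson's r of log2(CPM + 1). The sums share libraries and differ in depth, so r is a description. *Wfdc2* was most like *Psmc5* (r = 0.91), *Psmb5* (0.907) and *Vdac1* (0.882), and *Wfdc3* was most like *Tcp11l1* (0.829), *Sbsn* (0.791) and *Cirbp* (0.773). *Wfdc18* was most like *Ehf* (0.858), *Slc5a8* (0.844) and *Basp1* (0.813), and *Lcn2* was most like *Ntng1* (0.884), *Fxyd3* (0.839) and *Irx2* (0.838). *Slpi* was most like *Krt14* (0.794), *Fermt1* (0.772) and *Krt5* (0.768), and *Pigr* was most like *Fcgbp* (0.781), *Slc5a7* (0.755) and *Ndel1* (0.735). Among the 6 genes themselves, *Lcn2* and *Wfdc18* were the most alike pair (r = 0.798), followed by *Wfdc18* and *Wfdc3* (0.736), and *Pigr* and *Slpi* were the least alike (−0.208).

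Other genes of the same defence functions were read from 8 lists with 105 distinct genes, none of them among the 6, in luminal ER- cells of LATS1/2-KO against CTL. They are set beside the 30.5% of all genes called higher, the 28.1% called lower and the median log2 fold change of 0.02 over all genes. Of the 18 other WFDC genes only 3 passed the low-count filter, and 1 rose. The number of genes called in this list, in either direction, depended on which libraries were kept. *Wfdc17* stood at 0.443, 1.14, 6.5 and 10.7 CPM, a log2 fold change of 3.12 (SE 0.42; edgeR, Benjamini-Hochberg adjusted p = 0.000744), or 3.91 without CTL 2. *Wfdc12*, a neighbour of *Wfdc2*, *Wfdc3* and *Slpi* in the WFDC locus, stood at 4.87, 7.5, 9.26 and 12.4 CPM and was not called, and the list's median was 0.47. *Wfdc17* and *Wfdc12* were higher in both LATS1/2-KO libraries in CPM, as were 58.9% of all genes tested. For *Wfdc12* the log2 fold change was 0.47 (SE 0.24), and some of the alternatives called it higher, that without CTL 2 (0.80) among them, while it was 0.18 without CTL 1 and not called.

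Antimicrobial and acute phase genes, the class to which *Lcn2* itself belongs by function, were divided: 9 of 18 tested rose and 4 fell, with a median of 0.68. Lactoferrin (*Ltf*), the other iron-withholding protein of milk, fell from 370.2 and 717 to 237 and 178 CPM (log2 −1.73, SE 0.30; edgeR, Benjamini-Hochberg adjusted p = 0.00215). Ceruloplasmin (*Cp*) rose from 340.2 and 409 to 620 and 745 CPM (log2 0.52, SE 0.14; edgeR, Benjamini-Hochberg adjusted p = 0.014), a call that was lost without CTL 1 (0.39). *Saa3*, a serum amyloid, was at 0, 0.0878, 4.68 and 8.81 CPM, and *Saa2* had no UMI in CTL and 19 in each LATS1/2-KO library, at least 6.62-fold higher against a floor of 3 UMIs per library. With *Saa2* at that bound the median was still 0.68. *Cd14*, *S100a8* and *S100a9* of this list are also gate markers, and *Cd14* was not called. The rises of *Saa3* and *Wfdc17*, which macrophages and fibroblasts can also make, went with the marker sums of those cells given above, and their part was not tested.

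The list named IgA transport held 8 genes, of which 2 were tested, *Fcgrt* and *Tnfsf13b*. *Jchain*, *Igha* and *Ccl28* did not pass the low-count filter. *Fcgrt*, the neonatal Fc receptor, fell from 10.4 and 9.3 to 6.97 and 6.01 CPM (log2 −0.95, SE 0.17, edgeR, Benjamini-Hochberg adjusted p = 0.00252). The list's median was −0.17. *Tnfsf13b* was not called. The list of mucins and trefoil factors, with their regulator *Spdef*, went the way of *Pigr*: 5 of 6 tested fell, none rose and the median was −1.93. Those that fell were 4 mucins and *Spdef*, and no trefoil factor passed the filter. *Muc15* fell from 427 and 476 to 38 and 60.1 CPM (log2 −3.55, SE 0.21; edgeR, Benjamini-Hochberg adjusted p = 2.46e-05) and *Muc1* from 155 and 153 to 67.5 and 79.9 CPM (log2 −1.42, SE 0.11; edgeR, Benjamini-Hochberg adjusted p = 6.49e-05). Both CTL libraries were above both LATS1/2-KO libraries in CPM for *Muc15*, *Muc1*, *Muc20* and *Muc4*, as for 24.8% of all 13485 genes tested.

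Protease inhibitors other than the WFDC genes were divided, with 2 of 10 higher, 5 lower and a median of −0.29, though only 4 of the 7 were called without CTL 1. The call of *Spint2* (−0.32, SE 0.10) was lost without CTL 1 (−0.34), CTL 2 (−0.32) or LATS1/2-KO 1 (−0.31). Cystatin M (*Cst6*) rose from 0.553 and 0.702 to 16.3 and 22.4 CPM (log2 4.60, SE 0.26; edgeR, Benjamini-Hochberg adjusted p = 2e-05), as *Slpi* and *Wfdc3* stood higher, while cystatin C (*Cst3*) fell from 881 and 2095 to 216 and 224 CPM (log2 −3.10, SE 0.37; edgeR, Benjamini-Hochberg adjusted p = 0.000406; −2.36 without CTL 2). Of 8 genes of neutrophil proteases and neutrophil markers, 4 of which are also gate markers, 2 were tested: *Prtn3* rose from 0.959 and 0.79 to 4.63 and 5.14 CPM (log2 2.12, SE 0.26; edgeR, Benjamini-Hochberg adjusted p = 0.000467) and *Retnlg* was not called, for a median of 0.99, and 2 were called without CTL 1 or CTL 2. *Elane* and *Ctsg*, the genes of the elastase and cathepsin G that SLPI inhibits, did not pass the filter.

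Among partners of *Lcn2* and genes of iron handling, 3 of 8 tested rose, 4 fell and the median was −0.22. *Slc22a17*, the lipocalin 2 receptor, fell from 7.01 and 7.77 to 1.46 and 1.56 CPM (log2 −2.63, SE 0.21; edgeR, Benjamini-Hochberg adjusted p = 7.1e-05). *Mmp9*, the protease that lipocalin 2 binds, rose from 0 and 0.176 to 2.81 and 8.63 CPM (log2 5.72, SE 0.91; edgeR, Benjamini-Hochberg adjusted p = 0.00157), with few CTL UMIs behind it: 4.64 without CTL 1 and 9.89 without CTL 2. Ferritin heavy chain (*Fth1*) rose by 0.39 (SE 0.11; edgeR, Benjamini-Hochberg adjusted p = 0.0196), a call lost without CTL 2 (0.33), and transferrin (*Trf*) fell by 2.52 (SE 0.29; edgeR, Benjamini-Hochberg adjusted p = 0.000343). The regulators of the NF-kB, IL-17 and STAT3 pathways, which are known to control *Lcn2* and *Pigr*, mostly fell: 12 of 14 tested were lower, 1 was higher and the median was −1.12. The list was not divided by whether a gene raises or restrains its pathway, so these counts give no direction of pathway activity. *Nfkbia* went from 1409 and 1622 to 828 and 657 CPM (log2 −1.38, SE 0.15; edgeR, Benjamini-Hochberg adjusted p = 0.000286), *Cebpb* fell by 2.08 (SE 0.19; edgeR, Benjamini-Hochberg adjusted p = 0.000128) and *Elf3* fell by 2.31 (SE 0.12; edgeR, Benjamini-Hochberg adjusted p = 1.66e-05). *Tnfaip3*, named after its value was seen, was the gene called higher.

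**Figure D3:**
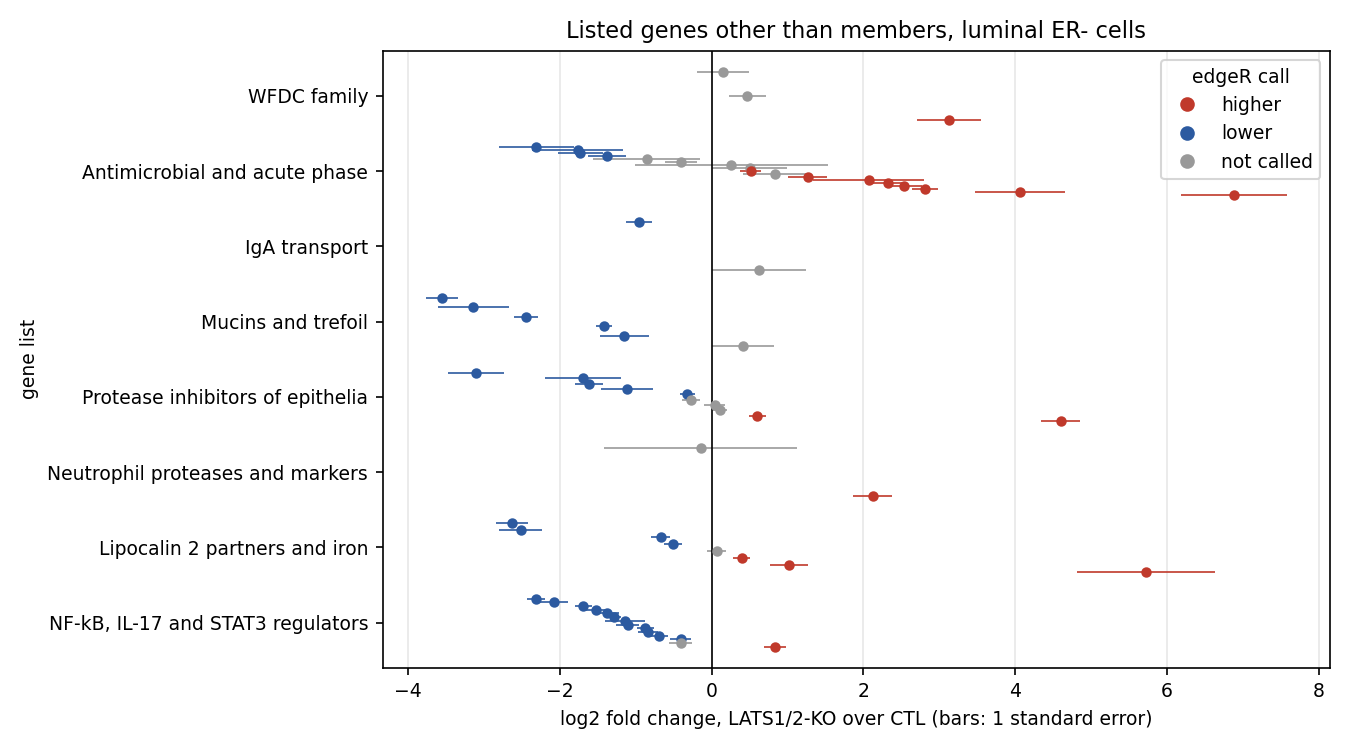
Log2 fold change of LATS1/2-KO over CTL in luminal ER- cells for each tested gene of the 8 lists, with bars of 1 SE and color by edgeR call. The mucin and trefoil list and the NF-kB, IL-17 and STAT3 regulators lie mostly left of 0, with medians of −1.93 and −1.12, and *Saa2*, at 0 in both CTL libraries, is not drawn.

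The same lists in the EYFP comparison, where 18.4% of all genes were called higher and 18.8% lower with a median of −0.01, were also lower in part. With the reporter, 2 of 3 WFDC genes fell (median −1.44). Of the other lists, 11 of 18 antimicrobial genes fell and 1 rose (median −0.90), and 1 of 2 genes of the IgA transport list fell (−0.80). Of 7 genes of the mucin and trefoil list, *Spdef* among them, 5 fell and 1 rose (−0.84). Of 8 protease inhibitors, 3 rose and none fell (0.09). The 1 neutrophil gene tested fell (−1.66), 4 of 8 iron genes fell and 1 rose (−0.28), and 9 of 14 regulators fell and 3 rose (−0.34).

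By position, 3 of the 6 genes lie in the WFDC locus of chromosome 2. In the mm10 assembly, GRCm38, with gene models of GENCODE vM21, *Slpi* (ENSMUSG00000017002) is at chr2:164354070-164389095 on the minus strand, *Wfdc2* (ENSMUSG00000017723) at chr2:164562413-164568510 on the plus strand and *Wfdc3* (ENSMUSG00000076434) at chr2:164731180-164745931 on the minus strand. *Lcn2* (ENSMUSG00000026822) is on the same chromosome at chr2:32384633-32388252, minus strand. *Wfdc18* (ENSMUSG00000000983) is at chr11:83709015-83711348, plus strand, and *Pigr* (ENSMUSG00000026417) at chr1:130826684-130852249, plus strand. *Slpi* overlaps the microRNA gene *Mir7678* on the same strand, whose reads could not be told from its own, and no other of the 6 overlaps another gene. WFDC genes are related in sequence, and how the counting treated reads shared by relatives is not given in the sources used here.

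The 3 genes of the locus stood higher together in luminal ER- cells of LATS1/2-KO while *Pigr* stood lower, so the sequences around their starts are shown. RefSeq promoters (build GRCm38.p6, 250 bases before to 50 after the start) were matched by symbol for 6 of 6 genes, *Wfdc2* with 2 starts. They were searched on both strands for GGAATG or CATTCC, the core of TEAD sites, which is in 14.7% of all 32851 promoters and for TTCNNNGAA, a STAT site that reads the same on both strands, in 8.3%. A narrow form of the NF-kB site was also sought on both strands: GGGA, then any 2 bases, then TTCC. It is in 1.47% of all promoters and had no match here. Other forms of the NF-kB site were not searched, so their absence is not shown. The one match was a STAT site in *Pigr*, in capitals below, at chr1:130826723-130826731, 39 bases after the start. A match is a description and not a bound site, and no match says only that these letters are not in the window. The windows are chr1:130826434-130826733 on the plus strand for *Pigr*, chr2:164356458-164356757 on the minus strand for *Slpi*, chr2:164562465-164562764 on the plus strand for the first start of *Wfdc2* and chr2:164743218-164743517 on the minus strand for *Wfdc3*, each written 5′ to 3′ on its own strand.
Pigr: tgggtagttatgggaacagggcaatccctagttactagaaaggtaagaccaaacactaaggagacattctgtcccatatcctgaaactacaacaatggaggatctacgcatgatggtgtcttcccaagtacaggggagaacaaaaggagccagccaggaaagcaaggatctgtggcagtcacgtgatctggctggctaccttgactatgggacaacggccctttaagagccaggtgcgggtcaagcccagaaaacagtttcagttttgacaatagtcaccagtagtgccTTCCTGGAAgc
Slpi: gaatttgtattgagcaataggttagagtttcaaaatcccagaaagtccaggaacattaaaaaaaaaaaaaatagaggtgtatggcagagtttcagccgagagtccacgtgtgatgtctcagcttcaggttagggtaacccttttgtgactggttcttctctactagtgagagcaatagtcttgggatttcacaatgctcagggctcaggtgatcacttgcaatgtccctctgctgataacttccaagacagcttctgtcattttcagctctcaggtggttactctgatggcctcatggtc
Wfdc2: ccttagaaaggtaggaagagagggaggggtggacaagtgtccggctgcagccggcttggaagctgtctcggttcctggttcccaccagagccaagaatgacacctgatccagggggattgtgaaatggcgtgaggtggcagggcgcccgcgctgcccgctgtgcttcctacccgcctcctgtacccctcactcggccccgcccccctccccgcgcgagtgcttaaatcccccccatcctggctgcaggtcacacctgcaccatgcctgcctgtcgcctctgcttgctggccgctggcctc
Wfdc3: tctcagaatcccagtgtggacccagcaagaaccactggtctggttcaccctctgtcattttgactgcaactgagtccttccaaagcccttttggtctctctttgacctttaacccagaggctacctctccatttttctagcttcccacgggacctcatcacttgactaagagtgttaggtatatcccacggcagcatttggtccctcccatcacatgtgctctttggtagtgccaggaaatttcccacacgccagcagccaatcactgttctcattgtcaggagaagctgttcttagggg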

How the data were processed

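The matrices hold UMI counts that the authors made for each barcode with Cell Ranger 3.1.0 on mm10 according to their processing notes, while the header of the deposited matrices names cellranger 6.1.2. Barcodes with more than 500 genes and less than 20% mitochondrial UMIs were kept. Cells were gated by 70 distinct markers, each scaled to its 0.99 quantile and averaged per list, with floors of 0.1 for a class and 0.3 for epithelial keratins. Sums of at least 20 cells were fitted in R 4.3.3 by the quasi-likelihood method of edgeR 4.0.16, after filterByExpr and TMM scaling, at a Benjamini-Hochberg threshold of 0.05, with the mouse as block within a group. DESeq2 1.42.0 served as an alternative. Tables were made with Python 3.11.15, numpy 2.4.6, scipy 1.17.1 and pandas 2.3.3, and figures with matplotlib 3.10.9. No doublet removal is stated and none was done; a gate without cells that carry another class's markers stands in for it.

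The 8 lists were other WFDC genes, antimicrobial and acute phase genes, IgA transport, mucins and trefoil factors, protease inhibitors, neutrophil proteases and markers, lipocalin 2 partners and iron, and NF-kB, IL-17 and STAT3 regulators. Genes named from a list were those with the highest mean level or the largest called change, apart from those said to be named otherwise. The members and lists were chosen with earlier results of these data known. Alternatives changed the scaling, tool, low-count filter, block, mitochondrial limit, gate, depth, reporter threshold and libraries.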

Additional observations from a re-analysis of the deposited data

Results flagged for a closer look

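The summed levels of *Wfdc18* differed in opposite directions between classes, with groups that did not overlap: the LATS1/2-KO mean was 1.81 times the CTL mean in luminal ER- cells, 0.735 times in luminal ER+ cells and 2.35 times in basal cells. These are ratios of mean CPM without TMM scaling, and their difference between classes was not tested. The LATS1/2-KO levels of luminal ER+ cells were 1.7 and 1.32 times and those of basal cells 2.1 and 2.43 times the background, which rose from 84.4 and 16.9 to 212 and 189 CPM in fibroblasts and endothelial cells. Its part in these values was not tested. The basal log2 value was 0.61 without CTL 1 and 1.89 without CTL 2, and the luminal ER+ value was −0.27 without LATS1/2-KO 2 and −0.86 without LATS1/2-KO 1. With the stricter gate the luminal ER+ groups overlapped (158 and 201 CPM in CTL, 176 and 68.3 CPM in LATS1/2-KO). The basal groups did not overlap under that gate (61.5 and 40.3 CPM in CTL, 287 and 317 CPM in LATS1/2-KO).

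The EYFP difference of luminal ER- minus that of luminal ER+ cells was 1.22 log2 units for *Wfdc2* and −0.39 for *Lcn2*, both called in an interaction fit that was chosen after the data had been seen. It rests on 2 mice. With EYFP-positive cells taken only at 2 UMIs or more the value was 1.26 for *Wfdc2* and −0.15 for *Lcn2*, which was then not called. In luminal ER+ cells of LATS1/2-KO 2 the 15 cells with 1 EYFP UMI held 1349.9 CPM of *Lcn2* and the 55 with more held 249.7 CPM, beside a background of 254 CPM.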

How the results depend on the processing

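Each result was computed again under alternatives that changed 1 choice at a time, except that thinning in the EYFP comparison also thinned the reporter, so that most EYFP-positive cells passed to the EYFP = 0 group (176 and 212 of them remained). Of 1012 such values, 867 were the same, 53 weaker, 27 stronger, 48 moved and 17 reversed. For the 6 genes with all libraries kept, 241 of 291 were the same. Library totals alone, thinning with EYFP called first, luminal ER+ cells alone, the addition of luminal keratin cells without a lineage and the interaction with its own alternatives were chosen after the data had been seen. The cause of these changes was not tested.

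Counts of genes called fell with thinning from 7898 to 4902 (luminal ER-), 4305 to 1922 (luminal ER+), 3774 to 1774 (basal), 4727 to 760 (EYFP), 8574 to 5601 (luminal ER- against ER+ in CTL) and 4838 to 2800 (luminal ER- against basal in CTL). With DESeq2 they were 2022 (basal), 1361 (EYFP) and 2395 (luminal ER- against basal in CTL). The EYFP count was 262 without the replicate block, 63.7% of it higher, 1400 after thinning with EYFP called first and 1950 in luminal ER+ cells alone.

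In luminal ER- cells of LATS1/2-KO against CTL, the stricter gate moved *Wfdc2* to 4.26. Library totals alone moved *Wfdc3* to 4.17, *Wfdc18* to 0.86, *Slpi* to 4.85 and *Pigr* to −2.83 and reversed *Lcn2* (0.24), *Cstb* (0.08), *Spint2* (0.03) and *Retnlg* (0.20). Thinning moved *Pigr* to −2.59 and reversed *Lcn2* (0.11). In luminal ER+ cells thinning moved *Wfdc3* to 3.79 and *Lcn2* to 0.68, and the stricter gate moved *Lcn2* to 0.99.

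In the EYFP comparison, the *Wfdc2* difference was called with no low-count filter (0.11), in luminal ER- cells alone (0.48), with 2 EYFP UMIs or more (0.18) and with luminal keratin cells without a lineage added (0.12), and was reversed in luminal ER+ cells alone (−0.72). Its adjusted p over the alternatives went from 3.27e-12 to 0.867 (edgeR or DESeq2, Benjamini-Hochberg). *Wfdc3* was −1.78 with 2 EYFP UMIs or more, −0.62 after thinning, −0.98 after thinning with EYFP called first and −1.79 with the added cells. Without the replicate block the call of *Pigr* (−2.03) was lost. *Wfdc18* (−0.87) moved to −0.79 under the stricter gate, −0.90 in luminal ER- cells alone, −0.33 in luminal ER+ cells alone, −1.11 with 2 EYFP UMIs or more, −0.76 after thinning, −0.77 after thinning with EYFP called first and −1.32 with the added cells. *Slpi* (−0.32) moved to −0.30 on library totals, −0.33 under 10% mitochondrial UMIs, −0.26 under the stricter gate, −0.33 in luminal ER- and −0.41 in luminal ER+ cells alone, −0.36 with 2 EYFP UMIs or more, −0.10 after thinning, −0.14 after thinning with EYFP called first and −0.68 with the added cells. In luminal ER+ cells alone *Slpi* went from 178 to 106 CPM in LATS1/2-KO 1 and from 197 to 204 CPM in LATS1/2-KO 2. For these untested values a move is any change beyond the spread of the 2 mice, which was small. The interaction of EYFP and lineage for *Lcn2* was no longer called with 2 EYFP UMIs or more (−0.15; edgeR, Benjamini-Hochberg adjusted p = 0.62).

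Between lineages of CTL, *Wfdc3* in luminal ER- against ER+ cells moved to 3.22 after thinning, and *Wfdc18* to 2.95 on library totals, 4.45 under the stricter gate and 3.43 after thinning. Against basal cells *Wfdc18* moved to 6.21 under the stricter gate. There the *Wfdc2* call was lost with DESeq2 (0.55), without the replicate block (0.58) and after thinning (0.42), and the value was reversed by the stricter gate (−0.13). *Pigr* was not called by DESeq2 (Benjamini-Hochberg adjusted p = 0.389), and over its alternatives in edgeR and DESeq2 the adjusted p went from 3.07e-08 to 0.389.

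With 1 library left out, the count of genes called went from 2467 to 2938 in luminal ER+ and from 2481 to 2889 in basal cells. *Lcn2* in luminal ER- cells went from −0.22 to 0.01, and in luminal ER+ cells *Wfdc2* from 0.29 to 0.73, *Wfdc18* from −0.86 to −0.27, *Slpi* from 3.87 to 5.12, *Lcn2* from 0.20 to 0.57 and *Pigr* from −1.59 to −0.83. *Wfdc2* with EYFP went from −0.07 to 0.32, *Slpi* with EYFP from −0.32 to −0.30, the difference between lineages in the EYFP effect of *Wfdc3* from −0.47 to 0.20 and of *Slpi* from −0.36 to 0.56, and *Slpi* in luminal ER- against ER+ cells of CTL from −0.17 to 1.61. Listed genes that reversed were *Wfikkn1* (−0.09 to 0.33), *Tnfsf13b* (−0.66 to 1.23), *Retnlg* (−4.07 to 3.51) and *Ftl1* (−0.06 to 0.17). A fit of 1 against 2 libraries assumes that the lone library varies like the other group, and within-mouse comparisons with 1 mouse are values with no test.

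CTL and LATS1/2-KO samples share only a replicate number: deviations of replicate 1 from its group mean correlated between groups with r = −0.0054, −0.0154 and 0.012 in the 3 classes. With the replicate block, 7739, 3879 and 3412 genes were called, against 7898, 4305 and 3774 without it.

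All comparisons rest on 2 mice per group, so very small adjusted p values rest on the spread that the fits share across genes. Class and group cannot be told apart from what the gate lets in, since lineage scores fell in LATS1/2-KO. EYFP-positive cells were deeper than EYFP = 0 cells.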
